A study of Mus musculus with 12 samples.

Results

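The genes described here are 34 markers of liver macrophages. They were found by symbol in the deposited table of read counts, where each of the 34 occurred once among 27304 genes. By the cell that each gene is best known to mark, they fell into 4 groups. Resident Kupffer cell markers were 7 genes, markers shared by most tissue macrophages were 12, markers of lipid-associated macrophages were 7, and markers of monocytes and neutrophils were 8. The last 2 groups are called recruited markers below. Of the 34 genes, 33 passed the filter on low counts that left 13641 genes for testing. The gene that did not was Ly6c2, a surface protein of classical monocytes, with 34 counts over all 12 libraries and 0 to 0.735 CPM, the unit used throughout (counts scaled to a common library total of 1000000).

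Kupffer cells are the resident macrophages of the liver sinusoid. They are seeded before birth, renew themselves locally and clear bacteria, aged red cells and lipoproteins from portal blood through scavenger receptors and complement receptors. When they are lost, or when the liver fills with fat, monocytes from blood enter and take up macrophage programmes. One of these is the lipid-associated macrophage, known for Trem2, Gpnmb, Cd9 and Spp1 and found in fatty and atherosclerotic tissue.

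The samples were whole livers from mice lacking apolipoprotein E, a ligand for lipoprotein uptake whose loss raises plasma cholesterol. All 12 mice were Apoe-/- and were fed a diet labelled HFD for 12 weeks. The controls carried only the Apoe-/- genotype, and the other mice were Apoe-/-AhR-/-, which also lack the aryl hydrocarbon receptor, a ligand-activated transcription factor, and are called Ahr-null here. There were 3 livers in each of 4 groups, control males, control females, Ahr-null males and Ahr-null females. Mice were flushed with PBS before the livers were taken. The sources used here do not give the alleles, the strain background, the age at the start of the diet or whether littermates were used, and the labels do not say whether groups were housed or processed together. Replicates are therefore separate samples as labelled, and the p-values measure the spread between those samples.

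Library totals ran from 9794253 to 18924880 counts, and 30.45% to 69.78% of counts came from 13 mitochondrially encoded genes. Counts of Ahr itself did not separate the genotypes (12.4 to 25.02 CPM over all 12), while its target Cyp1a2 was at 452 to 1170 CPM in controls and 47.0 to 217.2 CPM in the other livers. In 2 libraries a list of 30 neuron and glia genes was high, with a sum of 784.8 CPM for replicate 1 of the Ahr-null females and of 470.2 CPM for replicate 1 of the control males, where the remaining 10 had 63.9 to 149.9 CPM. The former also had correlations of only 0.805 and 0.811 with its group, and its level of the hepatocyte albumin gene Alb was 55130 CPM, beyond the 6281 to 22050 CPM seen elsewhere. Microglia, the brain's macrophages, express several of the 34 genes. A list of 7 microglia markers summed to 41.5 CPM and 22.6 CPM in these libraries and to 21.02 to 39.7 CPM in the remaining 10. Calls by genotype, averaged over the sexes, that were gained or lost without these libraries are given beside the genes.

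Kupffer cell and macrophage transcripts were detected in every library. Clec4f, a C-type lectin made by Kupffer cells alone among macrophages, had the highest mean of the 34 genes, at 73.9 TPM (a level per transcript length, computed here with GENCODE exon lengths). Cd5l, a secreted protein that blocks macrophage cell death, followed at 72.6 TPM, and the complement subunits C1qa and C1qb at 69.1 and 54.3 TPM. The recruited markers with the highest means were Lyz2 (lysozyme) at 47.7 TPM, Spp1 (osteopontin) at 41.9 TPM and Lgals3 (galectin 3) at 35.0 TPM. Cd163, the haemoglobin scavenger receptor, was near the bottom at 0.328 TPM. Beside Lyz2 and Ly6c2, the genome holds near-identical copies (Lyz1 and Ly6c1), so their counts are uncertain. Exons of Folr2, Csf1r, Cd9, Mmp12 and Cx3cr1 overlap a gene on the opposite strand, and those of Spp1 and Itgam overlap one on the same strand. The sources used here do not say whether the authors counted by strand, and the counts of these 7 genes may include reads of their neighbours. In whole liver, fewer cells of a type and less RNA per cell cannot be told apart.

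The first comparison asked how the macrophage markers differed between Ahr-null and control livers. Over both sexes, Marco rose and Gpnmb fell, and none of the other 31 tested markers passed the test. Marco is a scavenger receptor of resident macrophages that binds bacteria and particles, and Gpnmb is a transmembrane glycoprotein of lipid-laden macrophages. The test was edgeR's quasi-likelihood test with Benjamini-Hochberg adjustment over 13641 genes and a threshold of 0.05, and the 2 called markers of 33 stand beside 1.06% of all tested genes. At an unadjusted p under 0.05, 6 of 33 markers (18.2%) differed, close to 15.3% of all genes. Of the 33 markers, 17 had a positive and 16 a negative log2 fold change, with a median of 0.02 against 0.04 over all genes, of which 45.8% were negative. Each of the 4 marker groups held positive and negative values. Scaled by total counts alone, 26 markers were positive and 7 negative while the median of all genes moved from 0.04 to 0.53, and the 2 markers called were Marco and C1qa (986 genes higher and 67 lower, against 72 and 72).

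**Figure D1:**
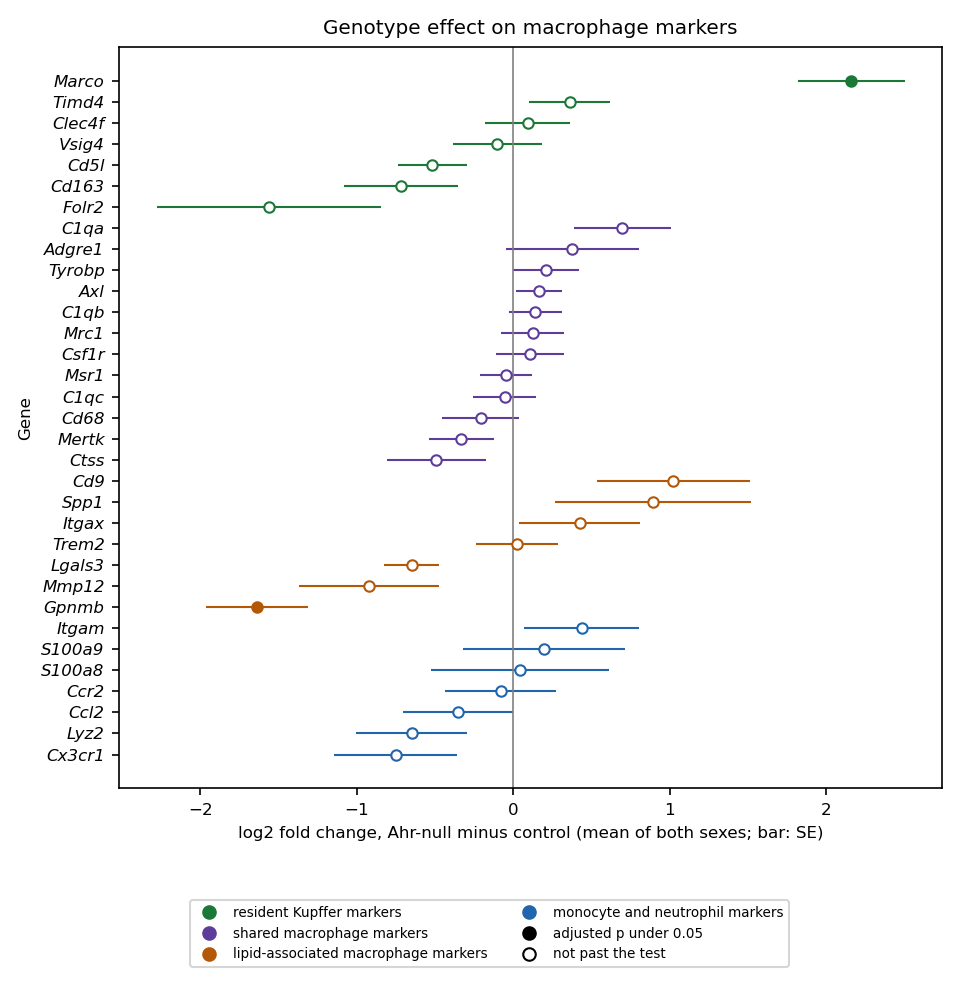
Log2 fold change between Ahr-null and control livers, averaged over the sexes, for the 33 tested markers (x axis, log2 units; bars are standard errors), coloured by marker group and ordered within it. Filled points passed the edgeR test. Marco at 2.16 and Gpnmb at -1.64 are the filled points, and each of the 4 groups has genes on both sides of 0.

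Among the 7 resident markers, Marco was the one that passed the test, 3 of 7 values were positive, and the median was -0.10. Marco stood at 13.2, 9.60 and 9.62 CPM in the control males and at 60.4, 23.6 and 45.8 CPM in the Ahr-null males. In the females it stood at 9.25, 8.73 and 14.8 CPM in controls and at 94.0, 47.3 and 22.6 CPM in Ahr-null livers. All 6 Ahr-null livers lay above all 6 controls. No other marker separated the genotypes in this way, and 0.616% of all tested genes did so upward and 0.85% downward. The averaged log2 fold change was 2.16 ± 0.34 (SE), adjusted p = 0.0148 by edgeR. The estimates in males (2.002 ± 0.48) and in females (2.32 ± 0.49) were alike in size, with edgeR adjusted p-values of 0.3116 and 0.0938.

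The call for Marco held without both libraries that carried neuron and glia transcripts (1.94, adjusted p = 0.0052 by edgeR). It was lost in 7 of 12 fits that left out a single library, those without control male replicates 2 or 3, any control female, or Ahr-null male replicates 1 or 3. The largest edgeR adjusted p among these was 0.0794, and the fold change stayed between 1.85 and 2.34 over all 12. A list of 6 markers of peritoneal and alveolar macrophages, which also express Marco, summed to 27.3 to 44.2 CPM in controls and 29.0 to 49.6 CPM in Ahr-null livers. The 4 tested genes of that list all had positive fold changes by genotype (median 0.29), and none was called. The part of these cells in the Marco difference was not tested.

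Marco lies on chromosome 1 from 120474538 to 120505024 on the minus strand (GRCm38, GENCODE M21). The 250 bases before its RefSeq start (GRCm38.p6, chr1:120505025-120505274, minus strand) are shown because this marker had the largest change of the 34 and because the receptor that the Ahr-null mice lack binds a short core sequence. They were searched on both strands for GCGTG, the core bound by the aryl hydrocarbon receptor with its partner, and for CATGTG, an E-box of the MITF family. Neither was found, so the window is in lower case throughout.
Marco: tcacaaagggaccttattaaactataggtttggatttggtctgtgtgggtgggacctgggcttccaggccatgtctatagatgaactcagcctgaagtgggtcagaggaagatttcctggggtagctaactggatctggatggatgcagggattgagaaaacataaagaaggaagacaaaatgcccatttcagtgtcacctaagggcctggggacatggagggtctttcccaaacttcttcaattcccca

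The other resident markers gave no call. Clec4f was at 84.0, 98.6 and 85.8 CPM in control males and 179, 115 and 113 CPM in the Ahr-null males, so that the Ahr-null males all lay above the controls. In females it was at 159, 106 and 203 CPM in controls and 57.2, 132 and 161 CPM in Ahr-null livers, with wide overlap. The averaged fold change was 0.09 ± 0.27 (edgeR adjusted p = 0.9175). In males, 3 markers (Clec4f, Marco and Itgam) were higher in all Ahr-null livers, beside 6.55% of all genes, and 4 (Gpnmb, Lgals3, Mmp12 and Ccl2) were lower in all, beside 7.34%.

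Cd5l was at 73.6, 99.3 and 82.7 CPM in control males and 81.6, 59.3 and 92.2 CPM in the Ahr-null males, which overlapped. The control females stood at 122, 227 and 194 CPM and the Ahr-null females at 120, 74.2 and 97.4 CPM, below every control. The averaged log2 fold change was -0.52 ± 0.22 (edgeR adjusted p = 0.2818). In females, Marco was higher in all Ahr-null livers, beside 9.22% of all genes, and 4 markers (Cd5l, Mertk, Gpnmb and Lgals3) were lower in all, beside 9.86%.

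Folr2, a folate receptor of resident macrophages, had 97 counts in all. It stood at 0.674, 0.775 and 0.127 CPM in control males and 0.552, 1.85 and 1.58 CPM in control females. The Ahr-null males had 0.118, 0 and 0.355 CPM and the Ahr-null females 0, 0.301 and 0.884 CPM, where a count of 0 allows up to 0.233 and 0.276 CPM. The fitted log2 fold change of -1.56 ± 0.72 did not pass the test (edgeR adjusted p = 0.3236). Timd4, which binds phosphatidylserine on dying cells and marks Kupffer cells of embryonic origin, had 0.36 ± 0.26. Vsig4, a complement receptor, had -0.10 ± 0.28, and Cd163 had -0.72 ± 0.37.

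**Figure D2:**
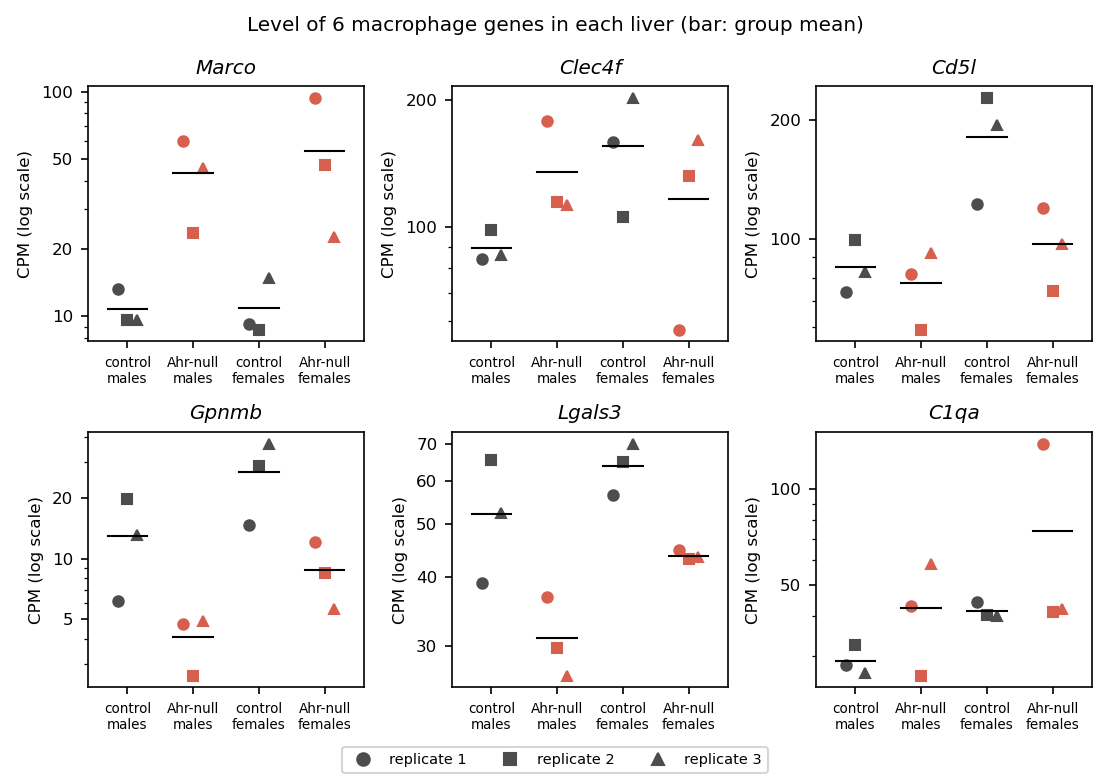
CPM of 6 markers in each of the 12 livers (y axis, logarithmic and different for each gene), with 1 symbol per replicate and a bar at the group mean; controls are grey and Ahr-null livers red. Marco is above every control in all 6 Ahr-null livers, Gpnmb and Lgals3 are lower in the Ahr-null livers of each sex, and the single high C1qa value of 139 CPM is Ahr-null female replicate 1.

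None of the 12 shared macrophage markers passed the test by genotype. Of these, 7 values were positive and 5 negative, with a median of 0.11. C1qa was at 28.0, 32.5 and 26.4 CPM in control males, 43.1, 26.1 and 58.5 CPM in the Ahr-null males, 44.3, 40.3 and 40.0 CPM in control females and 139, 41.3 and 42.2 CPM in the Ahr-null females. The averaged value was 0.70 ± 0.31 (edgeR adjusted p = 0.3059), and 0.30 without the library that stood at 139 CPM. C1qa and C1qb encode chains of the same complement molecule, and in Ahr-null female replicate 1 their CPM ratio was 2.55, against 0.775 to 1.71 in the other 11. C1qb had 0.14 ± 0.17 and C1qc -0.05 ± 0.20.

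Mertk, a receptor for uptake of dying cells, was at 31.4, 31.1 and 31.9 CPM in control males and 34.3, 24.5 and 25.3 CPM in the Ahr-null males. In females it was at 37.7, 35.9 and 37.4 CPM in controls and 14.6, 28.6 and 35.2 CPM in Ahr-null livers, all lower, with an averaged value of -0.33 ± 0.21 (edgeR adjusted p = 0.4801). Ctss, a lysosomal protease for antigen processing, was at 12.3, 13.7 and 10.1 CPM in control males and 11.4, 10.6 and 17.7 CPM in the Ahr-null males. The control females were at 16.2, 51.3 and 23.3 CPM and the Ahr-null females at 22.6, 8.06 and 10.9 CPM, and the averaged value was -0.49 ± 0.31 (edgeR adjusted p = 0.4964). The general macrophage genes Csf1r (receptor for the survival factor of macrophages) and Cd68 (a lysosomal protein) had 0.11 ± 0.22 and -0.21 ± 0.25, and Adgre1, the gene of the F4/80 antigen, had 0.38 ± 0.42. Its highest level of 27.1 CPM was in Ahr-null female replicate 1, and without that library the value was -0.31 ± 0.23 (edgeR adjusted p = 0.4508).

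Of the 7 lipid-associated markers, Gpnmb fell and 6 did not pass the test. Their median was 0.02, and their values ran from -1.64 to 1.02. Gpnmb was at 6.15, 19.7 and 13.1 CPM in control males and 4.73, 2.64 and 4.89 CPM in the Ahr-null males. It was at 14.6, 28.8 and 37.1 CPM in control females and 12.1, 8.48 and 5.63 CPM in the Ahr-null females. Within each sex the genotypes did not overlap, while control male replicate 1 lay among the Ahr-null females. The averaged log2 fold change was -1.64 ± 0.33 (edgeR adjusted p = 0.0337). The values by sex were -1.65 ± 0.46 in males and -1.62 ± 0.46 in females (edgeR adjusted p = 0.3915 and 0.171).

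Leaving out the 2 libraries with neuron and glia transcripts gave -1.94 for Gpnmb (edgeR adjusted p = 0.0043). Its call was lost in 10 of 12 fits that left out a single library, all except those without control male replicate 1 or Ahr-null female replicate 1, with values from -1.79 to -1.43 and adjusted p-values up to 0.1306. It was also lost when libraries were scaled by total counts alone (-1.11, adjusted p = 0.0655 by edgeR), with limma-voom (-1.56, adjusted p = 0.0514) and with limma on the deposited values (-1.36, adjusted p = 0.0507).

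Gpnmb lies on chromosome 6 from 49036546 to 49070929 on the plus strand. The 250 bases before its RefSeq start (chr6:49036268-49036517, plus strand) are shown as those of the lipid-associated marker that fell. Neither GCGTG nor CATGTG was found on either strand.
Gpnmb: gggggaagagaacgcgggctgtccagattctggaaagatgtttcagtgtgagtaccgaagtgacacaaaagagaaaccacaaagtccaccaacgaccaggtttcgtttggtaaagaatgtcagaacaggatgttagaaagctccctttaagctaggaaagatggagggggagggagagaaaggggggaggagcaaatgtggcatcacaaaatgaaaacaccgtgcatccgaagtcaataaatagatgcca

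Lgals3, a sugar-binding protein abundant in phagocytes, was also lower in the Ahr-null livers of each sex. It was at 39.0, 65.6 and 52.4 CPM in control males against 36.8, 29.7 and 26.4 CPM, and at 56.5, 65.1 and 70.3 CPM in control females against 44.8, 43.2 and 43.5 CPM. The groups of each sex did not overlap. Marco, Gpnmb and Lgals3 were the 3 of 33 markers for which this held in the same direction in both sexes, beside 2.9% of all genes. For Lgals3, the averaged value of -0.65 ± 0.18 did not pass the test (edgeR adjusted p = 0.1091). It did pass without the 2 libraries with neuron and glia transcripts (-0.73, edgeR adjusted p = 0.0267) and without Ahr-null female replicate 1 alone (-0.65, edgeR adjusted p = 0.0389). With all 12 libraries, DESeq2 and a fit with 1 surrogate variable also called Lgals3, where 664 and 1017 of all genes were called. The other 18 of 22 alternatives did not call it. Lgals3 lies on chromosome 14 from 47367751 to 47386160 on the plus strand. The window before its RefSeq start (chr14:47373610-47373859, plus strand) is set beside the others because it holds 1 copy of GCGTG, in capitals, 90 bases before the start.
Lgals3: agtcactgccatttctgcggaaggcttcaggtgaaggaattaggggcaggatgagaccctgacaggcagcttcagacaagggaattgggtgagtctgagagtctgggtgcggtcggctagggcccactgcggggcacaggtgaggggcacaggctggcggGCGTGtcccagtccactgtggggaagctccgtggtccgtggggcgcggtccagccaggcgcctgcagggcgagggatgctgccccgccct

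The remaining lipid-associated markers went both ways. Cd9, a tetraspanin, was at 3.70, 4.96 and 7.20 CPM in control males, 6.87, 5.12 and 23.1 CPM in the Ahr-null males, 4.49, 7.96 and 9.57 CPM in control females and 30.1, 5.23 and 5.91 CPM in the Ahr-null females. Its value of 1.02 ± 0.49 (edgeR adjusted p = 0.3427) came with 1 high library in each Ahr-null group. Spp1, which bile duct cells also make, had 0.89 ± 0.63, with its highest level of 203 CPM in Ahr-null female replicate 1. Without that library Cd9 had 0.40 ± 0.39 and Spp1 0.06 ± 0.57, and without both libraries with neuron and glia transcripts Spp1 had -0.04 ± 0.61. The 8 cholangiocyte markers all had positive fold changes (median 0.91, none called), and their part in the Cd9 and Spp1 values was not tested. Trem2, the lipid-sensing receptor that defines these macrophages, had 0.02 ± 0.26, Itgax (the integrin CD11c) 0.42 ± 0.39, and Mmp12 (macrophage elastase) -0.92 ± 0.45. Mmp12 passed the test without Ahr-null female replicate 1 (-1.40 ± 0.37, edgeR adjusted p = 0.0489) and did not without both libraries (-1.30 ± 0.39, edgeR adjusted p = 0.0929).

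Gpnmb and Trem2, both taken as marks of the same macrophage state, were also compared within each liver. The ratio of their CPM was 0.859 to 3.81 in the 6 controls and 0.520 to 0.825 in the 6 Ahr-null livers, without overlap. Against general macrophage genes, the genotypes did overlap. Gpnmb to Cd68 was 0.579 to 1.41 in controls and 0.186 to 1.22 in Ahr-null livers. Gpnmb to Csf1r was 0.231 to 0.737 in controls and 0.0775 to 0.548 in Ahr-null livers. In both, the highest Ahr-null value was that of Ahr-null female replicate 1, which also had the highest Trem2 level (19.5 CPM). The ratio of Marco to Clec4f was 0.058 to 0.157 in controls and 0.140 to 1.64 in Ahr-null livers, and overlapped only in Ahr-null female replicate 3 at 0.140 and control male replicate 1 at 0.157. The ratios of Gpnmb to Trem2 and of Marco to Clec4f were chosen after the values of the 4 genes were seen. All ratios are given without a test.

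**Figure D3:**
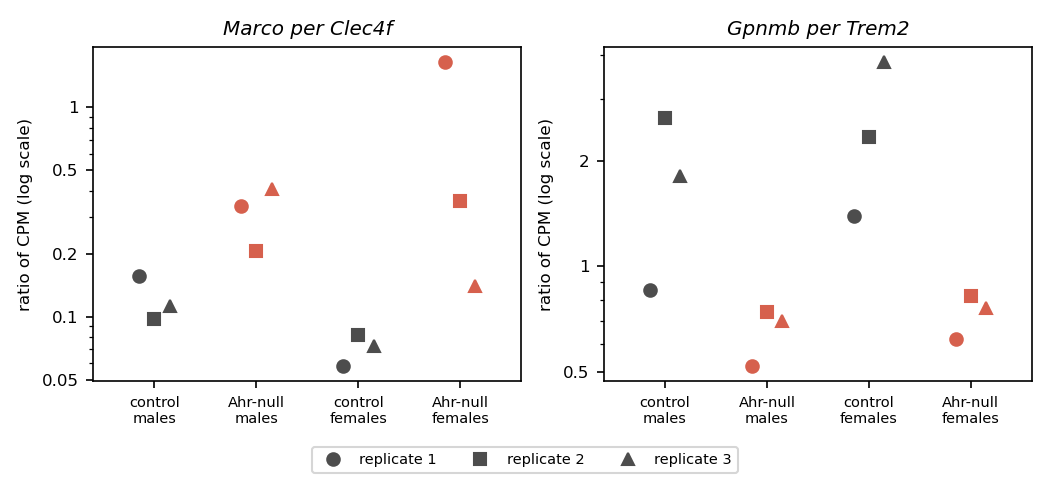
Ratio of the CPM of Marco to Clec4f (left) and of Gpnmb to Trem2 (right) in each liver (y axes, logarithmic), with 1 symbol per replicate and controls grey, Ahr-null livers red. The Gpnmb to Trem2 ratio of every Ahr-null liver, at most 0.825, is below that of every control, at least 0.859. The ratios of Gpnmb to Cd68 and to Csf1r, which overlapped between the genotypes, are not shown.

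None of the 7 tested monocyte and neutrophil markers passed the test by genotype, with 3 positive and 4 negative values and a median of -0.08. Cx3cr1, the fractalkine receptor, was at 17.0, 6.66 and 13.7 CPM in control males, 12.7, 4.42 and 5.605 CPM in the Ahr-null males, 11.2, 41.5 and 9.24 CPM in control females and 10.6, 13.7 and 11.2 CPM in the Ahr-null females. All groups overlapped, with -0.75 ± 0.39 (edgeR adjusted p = 0.387). Lyz2 was at 40.2, 47.7 and 26.8 CPM in control males, 25.3, 20.6 and 34.8 CPM in the Ahr-null males, 49.6, 113 and 80.8 CPM in control females and 91.2, 20.3 and 29.0 CPM in the Ahr-null females. Its averaged value was -0.65 ± 0.35 (edgeR adjusted p = 0.4071). Without Ahr-null female replicate 1 it was -1.10, past the edgeR test (adjusted p = 0.0219), and without both libraries with neuron and glia transcripts -1.08 (edgeR adjusted p = 0.0438).

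Itgam, the integrin CD11b, was at 1.01, 1.08 and 1.21 CPM in control males and 2.01, 2.09 and 1.74 CPM in the Ahr-null males, without overlap. In females it was at 1.04, 5.67 and 1.67 CPM in controls and 2.94, 3.49 and 2.15 CPM in Ahr-null livers, and the averaged value was 0.44 ± 0.37 (edgeR adjusted p = 0.6261). Ccr2, the receptor that draws monocytes from bone marrow, had -0.08 ± 0.36, and its ligand Ccl2 had -0.36 ± 0.35. S100a8 and S100a9, the calprotectin subunits of neutrophils, had 0.04 ± 0.57 and 0.20 ± 0.52 at 0.421 to 6.55 CPM. Of 11 further neutrophil markers, Csf3r alone passed the filter on low counts, and the list summed to 5.14 to 16.8 CPM per library.

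Resident and recruited markers were then set side by side within each liver, as the mean of log2(CPM + 0.5) over the 7 resident markers minus that over the 14 tested recruited markers. The difference was 0.98, 0.62 and 0.20 in control males and 1.15, 1.13 and 0.95 in Ahr-null males. It was 0.91, -0.21 and 1.18 in control females and 0.01, 0.59 and 1.12 in Ahr-null females. The genotypes overlapped in each sex, and the lowest values were those of control female replicate 2 and Ahr-null female replicate 1, the libraries with the highest recruited means. The resident mean includes Marco. With Marco left out, the difference was 0.90, 0.62 and 0.14 in control males and 0.78, 0.92 and 0.63 in Ahr-null males. Over both sexes, the mean difference with Marco was 0.61 in controls and 0.83 in Ahr-null livers. Without Marco these means were 0.61 and 0.51. By gene, 3 of 7 resident and 7 of 14 recruited markers had positive fold changes by genotype, with medians of -0.10 and -0.03 against 0.04 over all genes. The summed level of all 34 genes was 533.7 to 1112.7 CPM in controls and 518.3 to 1155.7 CPM in Ahr-null livers.

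**Figure D4:**
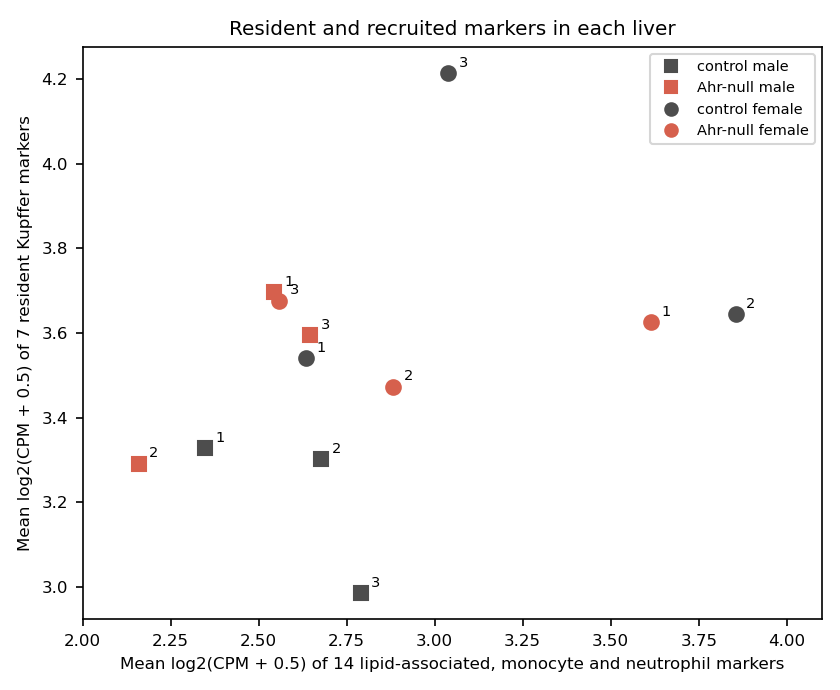
Mean log2(CPM + 0.5) of the 7 resident markers (y axis) against that of the 14 tested recruited markers (x axis), with 1 point per liver labelled by replicate number; squares are males, circles females, grey controls, red Ahr-null. Control female replicate 2 and Ahr-null female replicate 1 lie far to the right, and the genotypes overlap on both axes.

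The second comparison asked whether the genotype effect differed between the sexes. No marker passed the test of that difference, beside 0.00733% of all genes, and no marker had an unadjusted p under 0.05, against 4.6% of all genes. The smallest unadjusted edgeR p among the markers was 0.0649, for Ctss. Within males and within females, no marker was called either, beside 0.0367% and 0.161% of all genes, and 4 of 33 and 6 of 33 markers had an unadjusted p under 0.05, against 5.81% and 14.4% of all genes. Clec4f had fold changes of 0.60 ± 0.38 in males and -0.42 ± 0.38 in females, and the difference of 1.01 ± 0.54 did not pass the edgeR test (adjusted p = 0.9989).

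The third comparison set males against females. In this contrast 32 of 33 markers were lower in males than in females, with a median log2 fold change of -0.66, while 53.4% of all genes were negative and their median was -0.03. Cd163 was the exception at 0.51 ± 0.36. No single marker passed the edgeR test over all genes, beside 1.07% of all genes called, but 15 of 33 markers (45.5%) were lower at an unadjusted p under 0.05, against 5.07% of all genes. DESeq2 called 4 markers, Adgre1, C1qb, Cd5l and Tyrobp, all lower in males, beside 2.62% of all genes. A fit with 1 surrogate variable also called 4, C1qb, Cd68, Tyrobp and Vsig4, beside 3.31% of all genes. The 33 markers come from the same cells and libraries and are not independent, so these counts describe the list and carry no p-value.

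**Figure D5:**
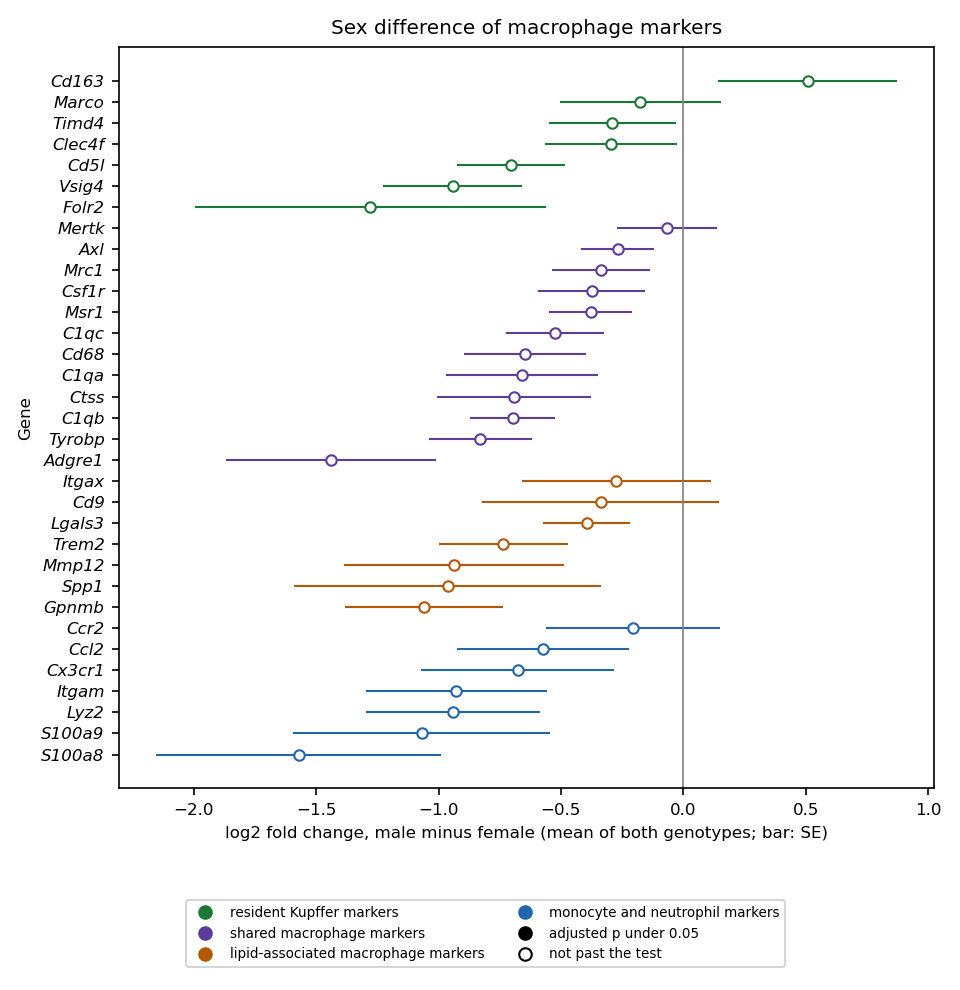
Log2 fold change of males minus females, averaged over the genotypes, for the 33 tested markers (x axis, log2 units; bars are standard errors), coloured by marker group and ordered within it. Open points did not pass the edgeR test, and Cd163 at 0.51 is the single gene right of 0.

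The median was negative in each of the 4 marker groups. It was -0.30 for 7 resident, -0.59 for 12 shared, -0.74 for 7 lipid-associated and -0.93 for 7 monocyte and neutrophil markers. Only the resident group held a positive value. In the last group, Itgam, Cx3cr1, Lyz2, S100a8 and S100a9 were highest in control female replicate 2, and Ccr2 and Ccl2 in other libraries. C1qb had the smallest p. It stood at 26.1, 37.3 and 23.5 CPM in control males and 50.1, 49.0 and 51.5 CPM in control females, and at 39.9, 28.2 and 34.3 CPM in the Ahr-null males and 54.6, 47.2 and 53.5 CPM in the Ahr-null females. All 6 males lay below all 6 females, and the estimate was -0.70 ± 0.17 on the log2 scale (adjusted p = 0.0983 in edgeR). Tyrobp, the signalling adaptor of Trem2, was at 9.60, 15.4 and 10.8 CPM in control males against 16.7, 19.1 and 19.6 CPM in control females, and at 14.4, 12.6 and 9.16 CPM in the Ahr-null males against 34.7, 17.3 and 21.6 CPM in the Ahr-null females. Its value was -0.83 ± 0.21 (edgeR adjusted p = 0.1089), again without overlap. These 2 of 33 markers separated the sexes downward in all 12 livers, beside 0.542% of all genes, and no marker did so upward, beside 0.682%.

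The same direction was present within each genotype, although no marker was called in either (0.352% of all genes in controls and 0.279% in Ahr-null livers were). In controls 32 of 33 markers were lower in males (median -0.62), where 48.8% of all genes were, and 15 of 33 were lower in every control male than in every control female, beside 9.19% of all genes. No marker was higher in every control male, beside 9.38%. Of these 15 genes, 10 were shared macrophage markers, among them the 3 C1q chains, Csf1r, Msr1, Mertk and Axl. In Ahr-null livers 30 of 33 were lower in males (median -0.55), where 54.3% of all genes were. There, 6 of 33 were lower in every male, beside 6.38% of all genes, and Cd163 was higher in every male, beside 4.83%.

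Scaled by total counts alone, the median of all genes moved from -0.03 to 0.24 and that of the markers from -0.66 to -0.34. On that scale 26 of 33 markers were lower in males, and 4 in place of 15 separated the control sexes, beside 2.16% of all genes. Without the 2 libraries with neuron and glia transcripts, 28 of 33 were lower and again 15 separated the control sexes, beside 16.8% of all genes in that smaller comparison. Without control female replicate 1, the number was 24, beside 13.4% of all genes. For these counts of separated markers, libraries were left out after scaling, so the counts could not fall below 15. In refits, the marker median was -0.40 without control female replicate 2 and -0.47 without Ahr-null female replicate 1. It was -0.72 without control female replicate 1. Control females had 56.5% to 69.8% of counts in mitochondrially encoded genes and control males 46.7% to 57.3%. With these genes removed before scaling, 32 of 33 markers were lower in males and the median was -0.65. The part of the mitochondrial share in the sex difference was not otherwise tested. Of 16 other genes of Kupffer cells, 14 were lower in males (median -0.33). The 1 that passed the test, C6, a component of complement, was higher in males (2.69 ± 0.26, edgeR adjusted p = 0.000125).

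Most lists for other cells lay lower in males too, where 53.4% of all genes were negative. Lymphocyte markers were negative in 8 of 10 (median -0.47), cholangiocyte markers in 5 of 8 (-0.35), stellate cell markers in 7 of 10 (-0.25), sinusoidal endothelial markers in 10 of 12 (-0.15) and dendritic cell markers in 6 of 7 (-0.13). Microglia markers were negative in 4 of 5 (-0.48). Neuron and glia genes were negative in 11 of 16 (-0.45), but the genotypes differed. In controls 15 of 16 were positive (median 1.24), and in Ahr-null livers 16 of 16 were negative (median -2.53). The 2 libraries with high levels of these genes were a control male and an Ahr-null female. Hepatocyte markers were negative in 3 of 9 (median 0.21) and red blood cell genes in 1 of 4 (median 0.30). Of these 4, 1 gene was called, higher in males (edgeR adjusted p = 0.0024). The part of these cells in the sex difference of the macrophage markers was not tested.

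The wider macrophage programme was read from 4 lists of other genes. By genotype, 0 of 16 other Kupffer cell genes were called, with 6 positive and 10 negative values. Closest were Cd207 (langerin), with -1.02 ± 0.37, and Spic, the transcription factor of iron-recycling macrophages, with 0.70 ± 0.29 (edgeR adjusted p = 0.2149 and 0.2594). None of 24 lysosome and lipid handling genes and none of 14 tested chemokines and receptors was called. The chemokine Ccl6 came nearest, with -1.21 ± 0.29 (edgeR adjusted p = 0.0658), followed by the neutrophil attractant Cxcl2 with -1.35 ± 0.51 (edgeR adjusted p = 0.2276). Levels of Cxcl2 were only 0.0552 to 1.09 CPM over the 12 libraries, so its fold change rests on few counts. In the lysosome list the smallest p-values belonged to Tfeb, a master regulator of lysosome genes, with -0.54 ± 0.19, and to the tetraspanin Cd63, with 0.90 ± 0.32 (edgeR adjusted p = 0.1961 and 0.2068).

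Of 18 Fc, complement and scavenger receptors, Colec12 fell, a scavenger receptor that endothelial and stromal cells also express. It was at 38.3 to 82.4 CPM in the 6 controls and 14.8 to 30.8 CPM in the 6 Ahr-null livers, with -1.52 ± 0.22 (edgeR adjusted p = 0.0118). Leaving out single libraries ended the edgeR call for Colec12 in 2 of 12 fits (without Ahr-null male replicate 1, adjusted p = 0.0741, or Ahr-null male replicate 3, adjusted p = 0.0538).

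Markers of other cells are given beside these genotype differences. Lymphocyte markers were positive in 10 of 10 tested genes (median 1.13, none called), with a summed level of 3.199 to 10.96 CPM in controls and 10.9 to 27.0 CPM in Ahr-null livers. Red blood cell genes summed to 56.2 to 196.4 CPM in controls and 101.2 to 640.4 CPM in Ahr-null livers. Stellate cell markers were positive in 10 of 10, and Rgs5 passed the test (1.12, edgeR adjusted p = 0.02). Its call was lost in 7 of 12 fits that left out a single library, those without control male replicates 2 or 3, any control female, or Ahr-null male replicates 1 or 3 (edgeR adjusted p up to 0.0978). Sinusoidal endothelial markers were even, with 6 positive and 6 negative. The part of these cells in the Marco and Gpnmb differences was not tested.

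The promoter windows of the markers were read as a set. RefSeq start sites were found for 28 of the 34 genes, giving 32 windows of 250 bases before the start. GCGTG on either strand was present in 3 of 32 (9.38%), those of Lgals3, Itgax and Trem2, and in 28.2% of 32851 windows of all genes. CATGTG was present in 8 of 32 (25%, among them Timd4, Folr2, Cd9 and Mmp12) against 12.3%. GAGGAAGT, a site of the type bound by the macrophage factor PU.1, was present in 6 of 32 (18.8%) against 2.44%, in windows of C1qc, Spp1, Mmp12, S100a8 and Ly6c2. Among these 6 windows, Ly6c2 was counted more than once, with different starts, and it did not pass the filter on low counts. CACGTG, the symmetric E-box, was in 0 of 32 against 6.02%. These are matches of letters in one window per start, without a measurement of binding.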

How the data were processed

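RNA from 12 livers was sequenced in bulk. Per the submitters' processing notes, the build was GRCm38 and the tools included STAR 2.7.8 and Trim Galore 0.6.5. FastQC 0.11.8 and DESeq2 1.28.1 are also named. The sources used here do not give the read counter or its strand setting. The authors deposited whole-number counts per gene, and a table of log2-scale expression values, which was used in an alternative. Here, genes were filtered (edgeR's filterByExpr by group), scaled by TMM and fitted with edgeR 4.0.16 (R 4.3.3), group means, all 12 libraries, robust quasi-likelihood tests and Benjamini-Hochberg adjustment over 13641 genes. CPM are per 1000000 TMM-scaled counts, and 1 count was worth at most 0.109 CPM. Standard errors, given after ± and as bars, were derived from the test. Each is the absolute log2 fold change divided by the square root of the quasi-likelihood F statistic. TPM used GENCODE M21 exon lengths. Replicate numbers only name livers, in the order of the labels. The script was tested on simulated data. Alternatives used limma 3.58.1, DESeq2 1.42.0 and sva 3.50.0. Replicates of each group differed by more than sampling noise (chi-square per degree of freedom 22.2 to 248.2).

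The members and gene lists were chosen with earlier results of these data known. The text gives levels in every library for markers called in any comparison. In each marker group it also gives them for up to 3 with the smallest p in the averaged genotype contrast. Clec4f is shown by library outside this rule. From the lists read for the wider macrophage programme, genes called by genotype are named, otherwise the 2 with the smallest p. From the lists for other cells, genes called by genotype are named, and those with the smallest p are not named throughout. The result of 1 further list is not reported here. C1qb and Tyrobp were described by library after their values were seen. The sex differences within each genotype were added after seeing the data.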

Additional observations from a re-analysis of the deposited data

How the results depend on the processing

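Each comparison was recomputed under 22 alternatives, 12 of which left out 1 library; the cause of each change was not tested. The markers called by genotype, 2 of 33, became 1 with limma-voom and with limma on the deposited values, and 3 with DESeq2. They became 5 with 1 surrogate variable, 4 without the 2 libraries with neuron and glia transcripts, and 0 to 5 when single libraries were left out. In males the number was 1 with DESeq2 and with the surrogate variable, and 0 to 1 when single libraries were left out. In females it was 1 with library size alone, 2 with DESeq2, 3 with the surrogate variable, 2 without those 2 libraries, and 0 to 1 in single omissions. For sex it was 4 with DESeq2 and with the surrogate variable, and 0 to 2 in single omissions.

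All genes called by genotype, 144, became 1053 with library size alone, 664 with DESeq2, 1017 with the surrogate variable, 432 without the 2 libraries, and 6 to 663 in single omissions. In males 5 became 12, 106, 83 and 27 in that order, 3 with limma-voom, 8 with the deposited values, 25 with males alone, and 0 to 57. In females 22 became 117, 491, 264 and 235, 50 with the deposited values, 3 with females alone, and 3 to 153. For the difference between sexes 1 became 3, 20, 4 and 4, 4 with the deposited values, and 0 to 2. For sex 146 became 358 with DESeq2, 452 with the surrogate variable, 262 without the 2 libraries, and 50 to 359, and it was 48 in controls and 38 in Ahr-null livers.

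With library size alone, Cd5l (0.019), Mertk (0.16) and Ctss (0.10) changed sign by genotype. Adgre1 was -0.090 with the surrogate variable, -0.35 without the 2 libraries and -0.31 to 0.58 when single libraries were left out, and Spp1 was -0.044 without the 2 libraries. With library size alone, markers lower in all control males than in all control females numbered 4. Single omissions gave 15 to 24, but libraries were left out after scaling, so these counts could not fall below 15. Marco stayed positive in all 22 alternatives and past the threshold in 15, and Gpnmb stayed negative in all 22 and past it in 9. The number of markers lower in males was 30 to 32 in single omissions, and their median log2 fold change was -0.72 to -0.40. No paired analysis was possible because the labels number the livers 1 to 12 and give no replicate numbers shared between groups. Markers near 1 CPM (Folr2, Cd163, S100a8, S100a9, Ly6c2) rest on 34 to 292 counts over 12 libraries, which limits what can be detected.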
